A study of Mus musculus with 3 samples.

Results

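The cells described here are the 685 cells of the E14.5 mouse tail that carry cluster code 1 in the deposited counts, out of 2052 tail cells and 15827 cells in all 3 libraries. They were chosen by that code alone, and they are named tendon and connective cells for the markers *Scx*, *Dcn*, *Postn* and *Osr2*. The study prepared 1 single-cell library of the tail, cut with a scalpel from embryos, beside 1 library of tenocytes differentiated from mouse embryonic stem (ES) cells and 1 of paraxial mesoderm from the same kind of culture, to compare cultured tenocytes with embryonic ones. The embryos came from ScxGFP mice on a C57BL6 strain, in which regulatory sequence of *Scx* drives a green fluorescent reporter. The tail received no treatment, it was dissociated with trypsin and collagenase, and dead cells were depleted with Annexin V before capture. No sort for the reporter is described, and the cluster codes were assigned by the authors.

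Tendon is a fibrous tissue that joins muscle to bone, and the tail carries long tendons along its chain of vertebrae. *Scx* (scleraxis) encodes the bHLH transcription factor that marks tendon progenitors and tendon cells. In the trunk these cells arise in the syndetome, a part of the sclerotome, which is the part of the somite that forms the vertebrae. Around tendon lies loose connective tissue of fibroblasts that produce fibrillar collagens and small leucine-rich proteoglycans, and *Osr1* and *Osr2* are transcription factors of such irregular connective tissue.

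The tail library held 31343741 unique molecular identifiers (UMIs, 1 for each captured transcript), of which the code 1 cells held 10124831. A cell held from 891 to 48291 UMIs, and the code 1 cells had a median of 13463 UMIs and 4781 genes against 13588 UMIs and 4605 genes in the other 1367 tail cells. Code 1 made up 33.4% of the tail cells (31.3 to 35.5). Intervals in parentheses are exact 95% intervals that cover counting error alone, because cells of 1 library are not replicates, and no p-value was computed. Levels are in CPM, in which the summed UMIs of each group of cells are scaled to a common total. The tail shared 4 cell barcodes with the tenocyte culture and 3 with the paraxial mesoderm culture. Scrublet called 9 tail cells as doublets, 1 of them in code 1, and 4 code 1 cells held over 1% haemoglobin UMIs.

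All of the marker genes were higher in code 1 cells than in the pooled other tail cells. *Scx* was measured at 1472 CPM against 713 CPM, a ratio of 2.06 (2.02 to 2.11). *Dcn*, which encodes the small proteoglycan decorin, was at 1499 CPM against 431 CPM, a ratio of 3.48 (3.39 to 3.57). *Postn*, which encodes the matricellular protein periostin, was at 422 CPM against 148 CPM, a ratio of 2.86 (2.73 to 3.0). *Osr2* was at 154 CPM against 34.4 CPM, a ratio of 4.48 (4.10 to 4.90). The reporter transcript ScxGFP followed *Scx* at 46.1 CPM against 22.3 CPM, a ratio of 2.07 (1.82 to 2.36). *Tnmd* (tenomodulin), a membrane protein of differentiating tendon cells, was at 93.0 CPM against 25.9 CPM, a ratio of 3.59 (3.23 to 3.99). Some of these ratios rested on the 53 cells of the subcluster with the highest *Scx*, described below. Without them, the ratio was 1.2 for *Scx*, 1.21 (1.03 to 1.41) for ScxGFP and 1.71 for *Tnmd*. It was 3.45 for *Dcn*, 3.04 for *Postn* and 4.69 for *Osr2*. Since the clusters were made from the same counts, these values describe the cluster and do not test it.

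No marker but *Osr2* had its highest level in code 1. *Scx* was higher in code 4, at 1905 CPM, and in code 2, at 1664 CPM, and it was at 834 CPM in code 7, whose cells had a median of 1881 UMIs. Against the 940 tail cells outside codes 1, 2 and 4, the *Scx* ratio of code 1 was 12.2 (11.6 to 12.9) and the *Tnmd* ratio was 32.4 (23.5 to 45.9). *Dcn* was as high in code 9, at 1505 CPM, as in code 1. *Postn* was highest in code 14, a small cluster of Schwann cell genes, at 1278 CPM. *Osr2* was next highest in code 2, at 92.2 CPM. *Scx* did not set code 1 apart from codes 2 and 4.

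**Figure D1:**
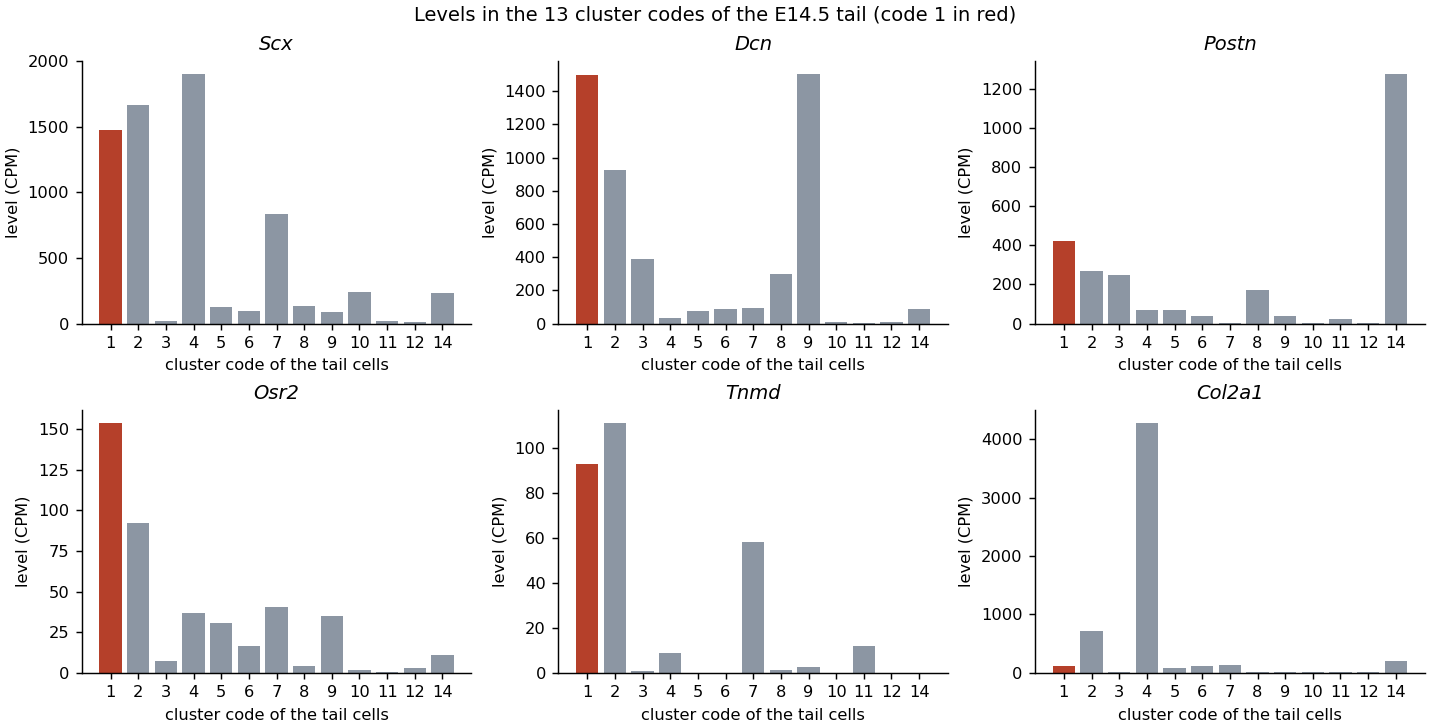
Bars give the level in CPM (y axis, from 0) of 6 genes in each of the 13 cluster codes of the tail (x axis), with code 1 in red. *Scx* was shared with codes 2 and 4, *Dcn* with codes 2 and 9, and *Osr2* was highest in code 1 at 154 CPM, while *Col2a1* was highest in code 4.

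Within the cluster, *Scx* was concentrated in few cells. No *Scx* UMI was found in 325 of the 685 cells (47.4%), the median cell held 1, and the highest held 768. The 68 cells with the most *Scx* UMIs, 10% of the cluster, held 77.5% of them. The same share was 95.5% for *Tnmd*, 55.4% for *Postn*, 53.2% for *Osr2* and 45.0% for *Dcn*, which was the most evenly spread of the markers. When each cell was thinned to 3000 UMIs, which left out 7 shallower cells of the cluster, 36.4% of code 1 cells (32.8 to 40.2) had a *Scx* UMI, against 52.6% before thinning. The share was 61.3% in code 4, 37.1% in code 2 and 5.92% in code 9. In the blood cells of code 12, which should lack *Scx*, it was 3.20% at a median depth before thinning of 8391.5 UMIs. The median cell of code 12 held 87.3% haemoglobin UMIs, which left few other UMIs at 3000, so this share can understate the background. The *Scx* level was 13.2 CPM in code 12, but 238 CPM in code 10, 237 CPM in code 14, 136 CPM in code 8 and 125 CPM in code 5. *Osr2* had a UMI in 23.7% of code 1 cells (20.6 to 27.1) and in 0 of 125 cells of code 12, whose exact interval reaches up to 2.91%.

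*Scx* and *Osr2* tended to be found in different cells of the cluster. At 3000 UMIs, 28 of 678 cells (4.13%, 2.76 to 5.91) held UMIs of both, where the product of their separate shares is 8.65%. Neither gene was found in 298 cells (44.0%). *Scx* and *Dcn* were found together in 16.2% of cells against a product of 21.2%. The opposite held for *Scx* with *Tnmd*, together in 6.05% of cells against a product of 3.12%, and for *Scx* with *Pax1*, a transcription factor of the sclerotome, together in 9.29% against 4.94%. *Dcn* and *Osr2* were found together in 15.9% of cells against a product of 13.8%, which lies within the interval of the joint share (13.3 to 18.9).

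Genes were tested where 10% or more of the cells in 1 of the groups held a UMI, which left 10826 genes. Of these, 635 (5.87%) were at least 2-fold higher in code 1 than in the other tail cells and 624 (5.76%) at least 2-fold lower, with the interval of the ratio beyond 1. A gene that reached this share of cells in 1 group alone could hardly pass in the other direction, so the counts for gene lists below are a description. The median ratio over all tested genes was 1.10, or 0.14 on the log2 scale. Of the genes past the fold, 50.4% were higher, and this split was 40.8% when haemoglobin, mitochondrial and ribosomal protein genes were kept out of the totals, which moved the median log2 ratio to 0.02. It was 63.1% when each of the other clusters was weighted equally, and 38.4% without cells under 1000 genes. The ratios below are therefore relative to a cell mixture that holds blood, with erythroid list genes summing to 81785 CPM in the other cells and 2044 CPM in code 1.

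Among genes at 50 CPM or more, the 15 with the highest ratios included genes of matrix and secreted proteins and the transcription factor *Osr1*. *Col6a6*, a chain of collagen VI, led with 64.6 CPM against 9.0 CPM, a ratio of 7.18 (6.10 to 8.48). *C1qtnf3*, a secreted protein of the C1q and tumor necrosis factor family, was at 182 CPM against 27.9 CPM, a ratio of 6.54. *Aspn*, the small proteoglycan asporin, was at 165 CPM against 26.8 CPM, a ratio of 6.18. *Osr1* was at 138 CPM against 22.7 CPM, a ratio of 6.07 (5.47 to 6.75). The growth factor *Igf1* had a ratio of 5.54, the WNT antagonist *Dkk2* 5.41, the procollagen peptidase *Adamts2* 4.63, the elastic fibre protein *Efemp1* 4.61 and the ligand *Fgf18* 4.55. *Tbx3os1*, *Pappa*, *Nov*, *Akap12*, *Tmem26* and *Prss35* made up the other genes among the 15 highest, with ratios from 5.02 to 6.64. *Tbx3os1* lies antisense to *Tbx3*, and whether the counting used strand is not given in the sources used here. The lowest ratio was that of *Kremen2*, at 0.494 CPM against 53.5 CPM. Among the 10 lowest were also *Trim29* at 0.593 CPM against 51.0 CPM, the keratin genes *Krt14* at 4.15 CPM against 371 CPM and *Krt5* at 2.67 CPM against 211 CPM, *Tfap2b* at 1.09 CPM against 70.6 CPM and the haemoglobin gene *Hbb-y* at 483 CPM against 23993 CPM.

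Most tested genes of the lists of fibrillar collagens, of collagens VI, XII, XIV and XVI and of small leucine-rich proteoglycans were higher. Of the 7 fibrillar collagen genes tested, 5 were at least 2-fold higher and none lower, with a median ratio of 3.01. *Col3a1* was the highest of them at 3557 CPM against 976 CPM, a ratio of 3.65, and *Col1a1* was at 3185 CPM against 958 CPM, a ratio of 3.32. *Col24a1* and *Col27a1* stayed within 2-fold, at ratios of 1.72 and 1.18. All 7 tested genes of collagens VI, XII, XIV and XVI were higher, with *Col6a6* at the top and *Col16a1* at the bottom at a ratio of 2.36. Among the small leucine-rich proteoglycans, which bind collagen fibrils, 4 of 6 tested genes were higher, namely *Dcn*, *Aspn*, *Ogn* at a ratio of 4.27 and *Lum* at 2.52, while *Bgn* (biglycan) had a ratio of 1.82 and *Fmod* (fibromodulin) 1.36. *Kera* (keratocan), with a UMI in under 10% of cells of both groups, was not tested.

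Genes of the elastic fibre were also higher, 11 of 14 and none lower. *Mfap5*, which encodes a microfibril protein, was at 30.3 CPM against 4.29 CPM, a ratio of 7.07, the fibrillin gene *Fbn1* had a ratio of 3.33, and *Eln* (elastin) was at 108 CPM against 34.2 CPM, a ratio of 3.16. Of 15 tested genes for collagen processing, 9 were higher and none lower. The crosslinking enzyme *Lox* was at 240 CPM against 52.8 CPM, a ratio of 4.54, and *Loxl1* and *Loxl2* had ratios of 3.01 and 2.99, whereas the lysyl hydroxylases *Plod1*, *Plod2* and *Plod3* lay between 1.14 and 1.33. Among 12 matricellular and adhesive proteins, 6 were higher and 1 was lower. *Thbs4* (thrombospondin 4), a glycoprotein of tendon, had the highest ratio of those tested at 7.84, and *Thbs2* was at 4.18, whereas *Ctgf*, a connective tissue growth factor, was lower at 28.0 CPM against 67.8 CPM, a ratio of 0.41.

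**Figure D2:**
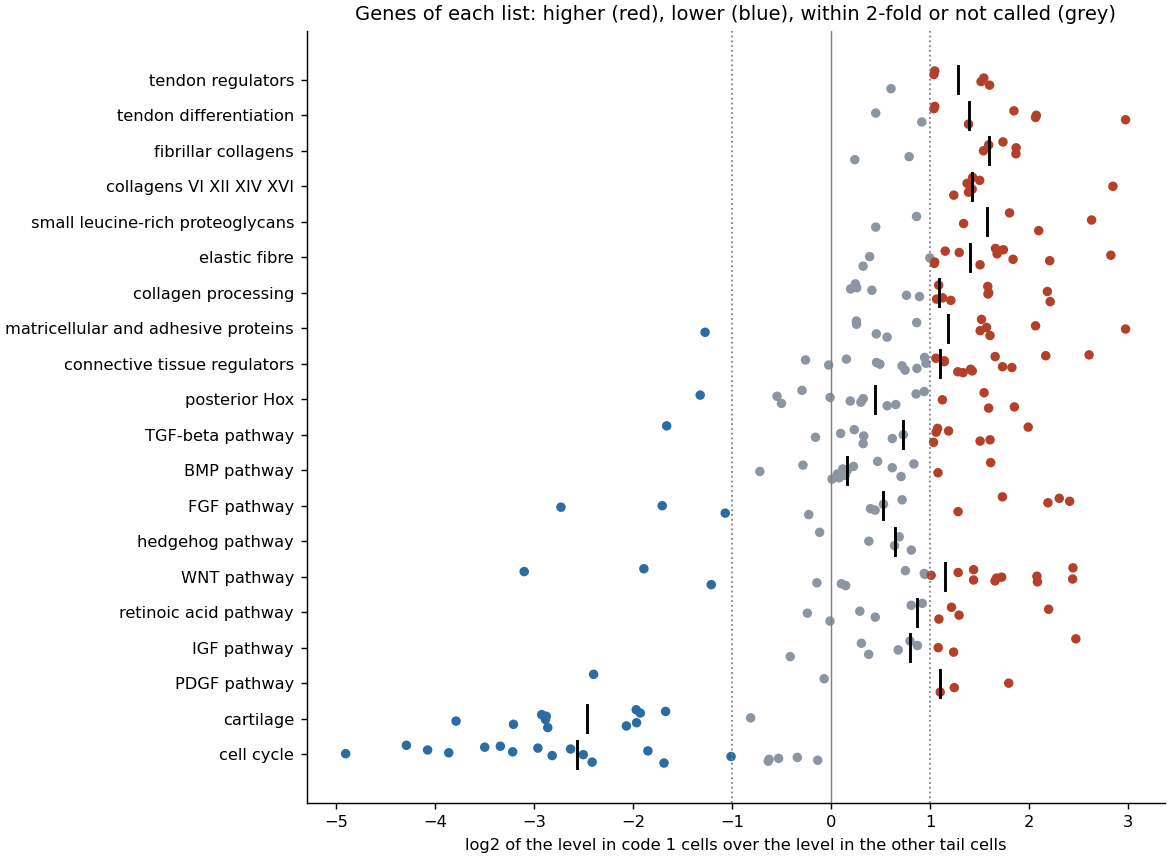
Each point is a tested gene of a list (y axis), placed at the log2 of its level in code 1 cells over its level in the other tail cells (x axis). Red and blue points passed 2-fold (dotted lines) upwards and downwards, grey points did not, and black bars are list medians. Collagen and elastic fibre genes lie on the right, and cartilage and cell cycle genes on the left.

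Regulators of tendon and of connective tissue were both higher in code 1 as a whole, although *Scx* and *Osr2* tended to be found in different cells. Of 6 tested tendon regulators, 5 were higher and none lower, with *Eya1* at a ratio of 3.03, *Six2* at 2.85 and the homeobox gene *Mkx* (mohawk) at 2.05 and only 22.3 CPM. *Mkx* was at 29.6 CPM in code 4 and 24.0 CPM in code 2. Without the 53 cells of the subcluster with the highest *Scx*, described below, the ratio was 1.27 for *Mkx* and 1.2 for *Scx*, and *Scx* was also under 2-fold without haemoglobin, mitochondrial and ribosomal protein genes (1.89) and without cells under 1000 genes (1.90). *Egr1*, which also responds to cell dissociation, had a ratio of 1.52, and the immediate early genes *Fos*, *Jun* and *Fosb* had ratios of 1.74, 1.93 and 2.17. Of 22 connective tissue regulators, 12 were higher and none lower, with *Osr1* and *Osr2* followed by *Meox2* at 3.54, *Meox1* at 3.31 and *Prrx1* at 3.15, a homeobox gene of limb and body wall mesenchyme. Among 16 posterior *Hox* genes, 4 were higher and 1 was lower. *Hoxd12* (ratio 3.60), *Hoxd13* (3.01), *Hoxa11* (2.91) and *Hoxc11* (2.18) were the higher ones, all under 100 CPM, and *Hoxb9* was the lower one at a ratio of 0.40. The highest *Hox* level of the list belonged to *Hoxa10*, at 249 CPM and a ratio of 1.92.

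Cartilage and proliferation genes were lower in code 1 than in the pooled other cells, which include code 4 with *Col2a1* at 4282 CPM and code 2 with 720.3 CPM. Of 12 tested cartilage genes, 11 were at least 2-fold lower and none higher. *Col2a1*, the main collagen of cartilage, was at 111 CPM against 840 CPM, a ratio of 0.13, although 44.2% of code 1 cells held a UMI of it against 34.9% of the others. *Sox9*, the transcription factor that directs cartilage formation, was at 63.4 CPM against 248 CPM, a ratio of 0.26. Of 20 cell cycle genes, 15 were lower and none higher, with *Top2a* at 20.2 CPM against 396 CPM. The other cells include code 2, with *Top2a* at 1348 CPM, whereas code 4 had it at 24.5 CPM, near the level of code 1. At 3000 UMIs, 4.42% of code 1 cells (3.0 to 6.26) had a *Top2a* UMI, against 4.58% in code 4 and 3.20% (0.88 to 7.99) in the blood cells of code 12. Code 12 does not give a background for proliferation, because its median cell held 87.3% haemoglobin UMIs. Its *Top2a* level was 8.47 CPM. *Mki67*, a second proliferation marker, gave 6.78% against 4.80%.

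Summed markers of blood vessel lining, muscle and macrophages were lower in code 1 than in the other cells. The 8 macrophage markers summed to 3.46 CPM in code 1 against 330 CPM in the other cells, with 1 to 15 UMIs each. The 9 endothelial markers summed to 45.3 CPM against 597 CPM, from 2 UMIs of *Tie1* to 196 of *Egfl7*, which had a UMI in 21.3% of code 1 cells and in 20.6% of the others. The 9 skeletal muscle markers summed to 37.9 CPM against 908 CPM, from no UMI of *Myf5*, which marks muscle progenitors, to 192 of *Tnnt1*, with 59 of *Ttn*. Of the 10 mural and smooth muscle markers, 3 of 6 tested were higher, and *Tagln*, with a UMI in 37.8% of code 1 cells, was at 167 CPM against 56.0 CPM. Others came from few cells, with 98.1% of *Acta2* UMIs in 68 cells and *Rgs5* and *Myh11* each found in 5.26% of cells. The 9 bone and perichondrium genes summed to 44.1 CPM against 53.6 CPM, and *Runx2*, the only one tested, was at 19.8 CPM and a ratio of 1.06. *Dlx5* was at 13.8 CPM against 6.17 CPM and *Alpl* at 5.43 CPM against 1.04 CPM, and the other 6 lay between 0.0988 and 1.98 CPM in code 1.

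Signaling genes were described by pathway, beside 5.87% of all tested genes higher and 5.76% lower. In the TGF-beta pathway, which is required for tendon, 7 of 15 tested genes were higher and 1 was lower. The ligand *Tgfb2* was at 284 CPM against 71.5 CPM, a ratio of 3.97, *Tgfb3* had a ratio of 2.10 and *Tgfb1* was the lower gene at 0.32. The receptors *Tgfbr2* and *Tgfbr3* had ratios of 2.27 and 2.08, and *Tgfbr1* 1.17. Of the latent TGF-beta binding proteins, *Ltbp1* had a ratio of 2.83 and *Ltbp3* 2.04. The matrix protein *Tgfbi*, a known target, had a ratio of 3.04, whereas the targets *Smad7*, *Skil* and *Pmepa1* lay between 0.90 and 1.53.

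In the FGF pathway, 5 of 13 tested genes were higher and 3 lower. The ligands *Fgf10* (ratio 5.30), *Fgf7* (4.93), *Fgf18* (4.55) and *Fgf2* (3.31) and the inhibitor *Spry4* (2.43) were higher. The receptors *Fgfr2* and *Fgfr3* were lower, at 0.31 and 0.15, as was the phosphatase *Dusp6*, a target, at 0.48, while *Fgfr1* was at 200 CPM and a ratio of 1.44. In the WNT pathway, 11 of 20 genes were higher and 3 lower. The higher genes included the secreted antagonists *Dkk2* (5.41), *Sfrp2* (4.23, at 494 CPM), *Dkk1* (3.18), *Sfrp1* (3.14) and *Dkk3* (2.71), beside the ligands *Wnt2* (5.42) and *Wnt5a* (2.71) and the agonists *Rspo2* (4.21) and *Rspo3* (3.29). *Wnt4* (0.27), *Wnt6* (0.12) and *Lef1* (0.43) were lower, and the target *Axin2* had a ratio of 1.07.

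Hedgehog genes did not pass the fold in either direction among 5 tested. Of all tested genes 5.87% were higher and 5.76% lower, so a list this short says little about the pathway. The receptor and target *Ptch1* had a ratio of 0.92 and the transducer *Smo* 1.61, and the ligands *Shh* and *Ihh* had 3 UMIs each in the cluster. BMP genes were mostly within 2-fold, with 2 of 15 higher, namely the ligand *Bmp4* at 3.05 and the antagonist *Chrd* at 2.11. In the retinoic acid pathway, 4 of 10 genes were higher, led by the synthesizing enzyme *Aldh1a2* at 4.57, with the uptake receptor *Stra6* at 2.45, the binding protein *Crabp2* at 2.32 and the nuclear receptor *Rarb* at 2.12. In the IGF pathway, 3 of 9 genes were higher, *Igf1* and the binding proteins *Igfbp4* (2.35) and *Igfbp2* (2.11). In the PDGF pathway, the receptors *Pdgfra* (2.36) and *Pdgfrb* (2.14) and the ligand *Pdgfd* (3.46) were higher and the ligand *Pdgfa* was lower at 0.19, out of 5 tested.

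The clusters most alike code 1, by Pearson's correlation of log2(CPM + 10) across 14424 genes, were code 4 (r = 0.955), code 2 (0.948) and code 9 (0.917). Genes are not independent replicates, and the clusters share 1 library, so these values only rank the clusters. Code 4, of 241 cells, is led by cartilage genes. Of 10654 genes tested against it, 669 (6.28%) were at least 2-fold higher in code 1 and 389 (3.65%) lower. *Scx* was at 1472 CPM in code 1 and 1905 CPM in code 4, so that both carried it within 2-fold. Cartilage genes were lower in code 1, with *Col2a1* at 111 CPM against 4282 CPM and *Acan* at 0.99 CPM against 259 CPM, and several of them, such as *Acan*, passed the detection filter through code 4 alone. The sclerotome gene *Pax1* was also lower, at 122 CPM against 1073 CPM, whereas *Meox1* and *Tbx18* of the same list were higher, at ratios of 2.24 and 2.55. *Dcn* was 41.3-fold higher (34.5 to 49.9), at 1499 CPM against 36.3 CPM, and *Osr1* was 45.5-fold higher (24.7 to 95.2). *Acta2*, *Nov*, *Tbx3*, *Cpa6* and *Adamts2* were also among the 8 genes with the highest ratios, and *Dmrt2* headed them with 797 UMIs against 1, a ratio of 260 (46.6 to 10296). Of 9 tested tendon differentiation genes, 5 were higher in code 1 and 1 was lower. *Tnmd* was higher, at 93.0 CPM against 8.77 CPM, *Fmod* was the lower one, at 41.7 CPM against 102 CPM, and *Mkx* was at 22.3 CPM against 29.6 CPM. Of 7 fibrillar collagen genes, 5 were higher in code 1, and *Col27a1* was lower at 83.5 CPM against 254 CPM. None of 15 tested cell cycle genes passed the fold, with *Top2a* at 20.2 CPM against 24.5 CPM and a median ratio of 0.79.

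Code 2, of 186 cells with a median of 22536 UMIs, had higher levels of cell cycle genes than code 1. Of 11298 genes tested, 312 (2.76%) were at least 2-fold higher in code 1 and 618 (5.47%) lower, and 17 of 20 cell cycle genes were among the lower ones. *Top2a* was at 20.2 CPM in code 1 and 1348 CPM in code 2. *Nusap1*, *Esco2*, *Hist1h1b*, *Neil3*, *Kif11*, *Cdca2*, *Iqgap3* and *Aurkb*, genes of chromosome replication and division, had the 8 lowest ratios, from 0.0087 to 0.014. None of the 4 marker genes, none of 9 tendon differentiation genes and none of 7 fibrillar collagen genes passed the fold. *Scx* was at 1664 CPM in code 2, *Tnmd* at 111 CPM and *Col1a1* at 2240.5 CPM. Cartilage genes were lower in code 1 than in code 2, with *Col2a1* at 111 CPM against 720.3 CPM. Erythroid genes summed to 2044 CPM in code 1 against 8823 CPM in code 2. The median cell went the other way, with 0.024% haemoglobin UMIs in code 1 and 0.019% in code 2. The genes highest in code 1 over code 2 were the neurofilament genes *Nefm* (4.33) and *Nefl* (3.92), followed by *Mxra8*, *Cpa6*, *C1qtnf3*, *Mxd4*, *Kdm7a* and *Tbx3os1* with ratios from 2.92 to 3.15.

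Code 9, of 157 cells, held fibrillar collagens at levels near those of code 1, with none of 7 genes past the fold, but few tendon transcripts. Of 11091 genes tested, 903 (8.14%) were at least 2-fold higher in code 1 and 871 (7.85%) lower. Of 6 tendon regulators 5 were higher in code 1 and of 9 tendon differentiation genes 8, with *Scx* at 1472 CPM against 90.1 CPM. *Col2a1* was at 111 CPM in code 1 against 14.8 CPM in code 9. *Nefm* had 1032 UMIs in code 1 and 0 in code 9, a ratio whose exact interval starts at 67.1. *Tmeff2*, *C1qtnf3*, *Chodl*, *Sema3c*, *Nefl* and *Ebf2* were also among the 8 genes with the highest ratios. Macrophage genes lead code 9, with a summed level of 2748 CPM for the macrophage markers, and *Cd52*, *Ccr2*, *Cybb* and *Fcgr1* had 0 UMIs in code 1. Code 9 thus held macrophage and collagen transcripts side by side, and whether in the same cells was not tested.

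**Figure D3:**
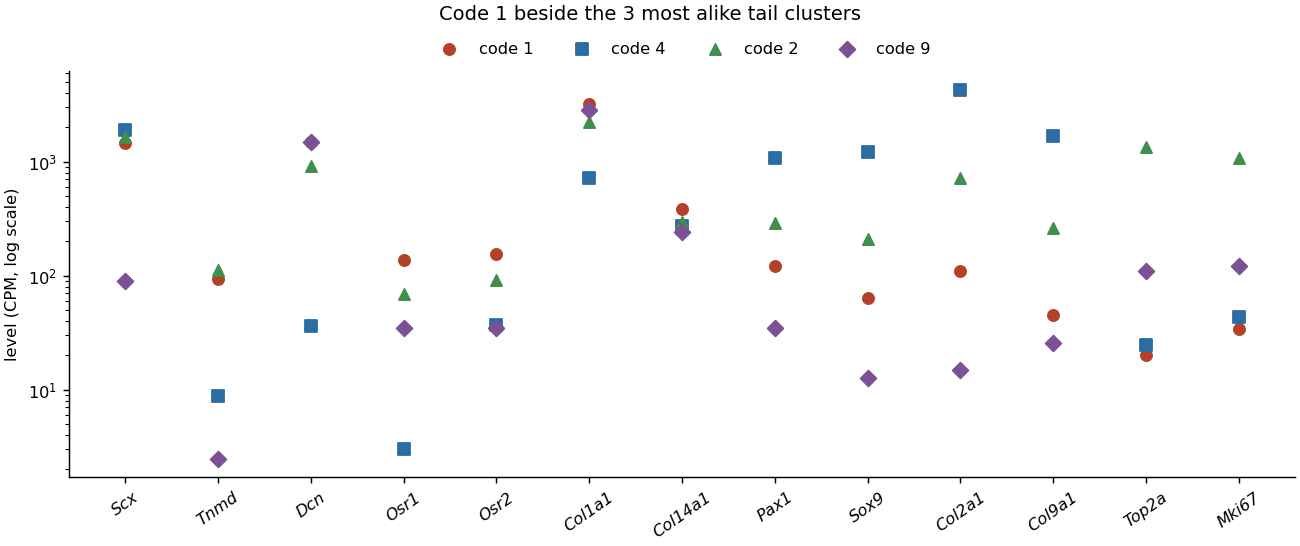
Points give the level in CPM (y axis, log scale) of 13 genes (x axis) in code 1 and in codes 4, 2 and 9. *Scx* is alike in codes 1, 4 and 2. Code 4 stands apart by *Col2a1* and *Sox9*, code 2 by *Top2a* and *Mki67*, and code 9 by its *Scx* and *Tnmd*, while its *Dcn* point covers that of code 1.

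The 685 cells were clustered anew on their own counts, which gave 7 subclusters of 162, 149, 101, 95, 76, 53 and 49 cells, numbered by size. They are given numbers and no cell type names. The genes below were used to form the subclusters, so their ratios over the rest of the code 1 cells are descriptions. The share of tested genes at least 2-fold higher than in the rest was 2.86%, 1.45%, 2.89%, 4.73%, 5.26%, 2.85% and 3.87% in subclusters 1 to 7. The partition moved with the settings, and its adjusted Rand index against 6 alternatives lay between 0.526 and 0.769, where 1 is an identical partition. Subclusters 4, 5 and 1 were the most stable, with a median best overlap (Jaccard index) of 0.94, 0.76 and 0.71, and subcluster 3 had the lowest median, 0.43. Subcluster 6 had a median of 0.52, with the lowest minimum, 0.31, and the lowest maximum, 0.55.

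Subcluster 6, of 53 cells, held 46.7% of all *Scx* UMIs of the cluster. *Scx* was at 8038 CPM there, against 2165 CPM in subcluster 1, 829 CPM in subcluster 2 and 143 to 515 CPM in the other subclusters. The reporter transcript was also highest there, at 250.7 CPM. *Tnmd* was at 613 CPM against 85.2 CPM in the next highest subcluster, *Chodl*, a membrane lectin, at 284 CPM against 86.7 CPM, *Kera*, a small proteoglycan, at 173 CPM against 18.1 CPM and *Mkx* at 113 CPM against 20.6 CPM. *Thbs4* was at 170 CPM, below its 228 CPM in subcluster 7, and *Col1a1* at 4588 CPM, below its 6000.5 CPM in subcluster 3. At 3000 UMIs, 69.8% of its cells (55.7 to 81.7) had a *Scx* UMI and 37.7% (24.8 to 52.1) a *Tnmd* UMI, whereas *Tnmd* was found in 0 of 93 cells of subcluster 4 (up to 3.89%) and 0 of 49 of subcluster 7 (up to 7.25%). The 8 genes that led it were mitotic, from *Aspm* (64.2-fold) to *Cdca8* (17.6-fold), and it was left without a tendon name.

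The level of *Mki67* in the subcluster with the highest *Scx* moved with the grouping of the cells, whereas *Tnmd* was higher in it in all groupings tried. Over the 7 clusterings tried, the subcluster with the highest *Scx* held 29 to 102 cells and had *Scx* at 4071 to 10787 CPM, and *Tnmd* was at 305 to 1129 CPM in it against 44.4 to 51.1 CPM in the rest. It held 30.6% to 61.1% of all *Scx* UMIs. *Mki67* was at 207 CPM there against 17.6 CPM in the rest with the settings used here, and at 116 to 369 CPM against 16.8 to 19.2 CPM at a resolution of 0.3 and with 10 or 30 principal components. It was at 35.7 CPM against 33.5 CPM with another seed, at 48.3 CPM against 32.7 CPM at a resolution of 1, and at 38.6 CPM against 33.0 CPM when cell cycle, haemoglobin, sex-linked and immediate early genes were kept out of the clustering. Which genes led in those groupings was not tested. Of the 68 cells with the most *Scx* UMIs, 28 belonged to subcluster 1, 23 to subcluster 6 and 10 to subcluster 2. Without the 53 cells of subcluster 6, the ratio of *Scx* over the other tail cells was 1.2 (1.17 to 1.24) in place of 2.06 and that of *Tnmd* 1.71 in place of 3.59, while it was 3.45 for *Dcn*, 3.04 for *Postn* and 4.69 for *Osr2*.

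The sequences before the starts of *Tnmd*, *Chodl* and *Kera* are shown because these genes were high together with *Scx* in subcluster 6, and *Scx* protein belongs to a family that binds E-box sequences. They are the 250 bases before the RefSeq start of each gene in build GRCm38.p6, all on the plus strand, at chrX:133850758-133851007 for *Tnmd*, chr16:78930698-78930947 for *Chodl* and chr10:97606955-97607204 for *Kera*. Capitals mark the E-box CAGATG, searched on both strands.
Tnmd: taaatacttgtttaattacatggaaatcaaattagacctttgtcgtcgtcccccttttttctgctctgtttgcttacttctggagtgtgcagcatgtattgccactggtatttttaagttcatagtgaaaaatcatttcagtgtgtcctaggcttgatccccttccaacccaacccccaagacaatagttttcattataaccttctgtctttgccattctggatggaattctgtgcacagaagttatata
Chodl: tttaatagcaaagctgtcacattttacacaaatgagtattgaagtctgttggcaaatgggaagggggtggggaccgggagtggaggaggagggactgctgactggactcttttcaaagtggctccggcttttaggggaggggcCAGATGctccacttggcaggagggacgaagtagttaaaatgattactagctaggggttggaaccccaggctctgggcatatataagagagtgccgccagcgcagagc
Kera: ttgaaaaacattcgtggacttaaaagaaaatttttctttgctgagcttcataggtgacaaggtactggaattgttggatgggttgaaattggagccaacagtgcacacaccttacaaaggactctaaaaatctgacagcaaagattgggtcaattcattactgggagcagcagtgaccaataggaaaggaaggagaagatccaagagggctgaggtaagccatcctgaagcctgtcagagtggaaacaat
The motif was found once before *Chodl*, with its first base 107 bases before the start, and not in these windows of *Tnmd* and *Kera*. Of 32851 promoter windows of this length, 14.4% hold it on either strand, so that 1 match among 3 genes is a description of these letters and not of binding. A promoter sequence of *Scx* is not shown.

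Subcluster 1, of 162 cells, carried 30.3% of the *Scx* UMIs and little *Dcn*. *Scx* had a UMI in 62.3% of its cells at 3000 UMIs (54.2 to 69.8), and *Osr2* in 1.89% (0.39 to 5.41). *Dcn* was at 172 CPM, the lowest of the 7 subclusters, against 2334 CPM in subcluster 2. It was led by *Foxd1* at 359 CPM (13.7-fold), *Reln* (13.5-fold), *Foxc1* (11.1-fold), *Sox6*, *Sox5*, *Col9a1*, *Col9a3* and *Bmpr1b*, of which *Sox5*, *Sox6* and the collagen IX genes belong to the cartilage list. The sclerotome genes *Pax1* and *Pax9* were at 361 and 175 CPM there. Cartilage genes summed to 1106 CPM, against 218 to 572 CPM in the other subclusters and 13590 CPM in code 4, and *Acan* was at 2.87 CPM. *Fn1* (fibronectin) was at 1656 CPM, and the pericyte marker *Rgs5* at 128 CPM, both highest there.

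Subclusters 2 and 3 had the highest levels of *Dcn* and the highest summed levels of fibrillar collagen genes, at 12768 and 19795 CPM. Subcluster 2, of 149 cells, had *Dcn* at 2334 CPM, with a UMI in 94.6% of cells (89.6 to 97.6), and *Lum* at 1089 CPM, against 1381 CPM in subcluster 3. *C1qtnf3* at 464 CPM (4.84-fold), *Mybpc1* and *Cpa6* were among the genes that led it, beside haemoglobin genes. Of its cells 2 held over 1% haemoglobin UMIs, 1 of them 27.3%, and the median cell 0.023%. The part of these cells in the haemoglobin level was not tested. *Hoxc13* was at 334 CPM and *Zfhx3* at 1539 CPM, both highest there. Subcluster 3, of 101 cells, had 3 of 7 tested fibrillar collagen genes at least 2-fold higher than the rest and none lower, against 2.89% of all tested genes higher, with *Col1a1* at 6000.5 CPM and *Col3a1* at 6541 CPM. It also had the highest level of *Dcn* at 3013 CPM, *Col14a1* at 1068 CPM, *Postn* at 993 CPM and *Lox* at 554 CPM. *Pappa2* (17.1-fold), *Dpt* (13.3-fold), the gene for the matrix protein dermatopontin, and the transcription factors *Sim1*, *Shox2* and *Tbx15* led it with *Rtl3*, *Agtr2* and *Nell1*. Of 6 tested dermal fibroblast genes, to which *Dpt* belongs, 2 were higher there and 2 lower. *Igf1* was at 824 CPM, also highest there, and *Scx* at 243 CPM with a UMI in 16.8% of cells. This *Scx* level was near the 238 CPM of code 10.

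**Figure D4:**
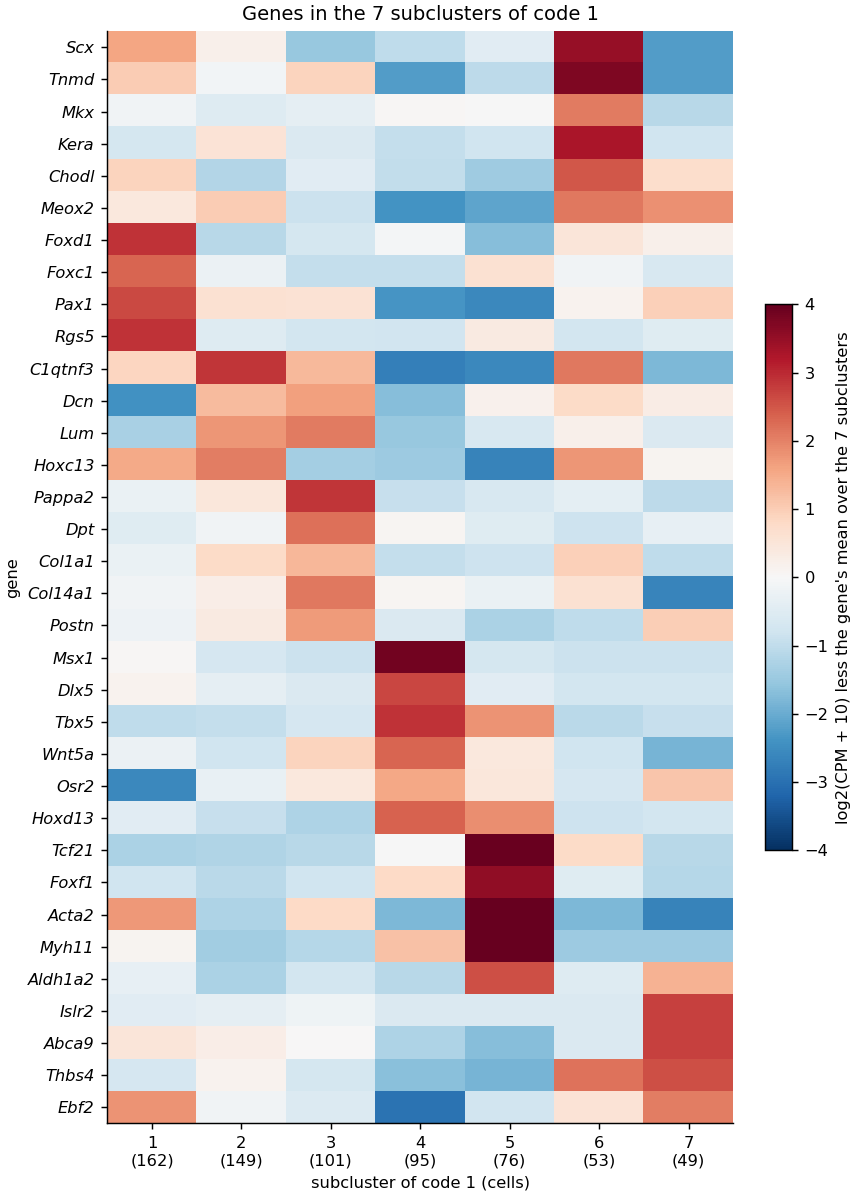
Colors give log2(CPM + 10) of each gene (rows) less its mean over the 7 subclusters of code 1 (columns, with their cell numbers), with values beyond 4 in either direction drawn as 4. *Scx*, *Tnmd*, *Mkx*, *Kera* and *Chodl* are highest in subcluster 6, *Foxd1* and *Pax1* in 1, *Dcn*, *Lum* and collagens in 2 and 3, *Msx1* and *Tbx5* in 4, *Acta2* and *Myh11* in 5, and *Islr2* and *Abca9* in 7.

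The homeobox genes *Msx1* and *Dlx5* and the T-box gene *Tbx5* were among the 8 genes that led subcluster 4, of 95 cells. *Msx1* was at 251 CPM against 2.46 CPM in the rest of the cluster, a ratio of 102 (66.2 to 166), with a UMI in 38.9% of its cells. It was followed by *Foxq1* (36.0-fold), *Dlx5* (30.7-fold), the WNT antagonist *Frzb* (25.9-fold), *1700018A04Rik*, *Sall3*, *Entpd1* and *Tbx5* (18.9-fold), which had a UMI in 85.3% of its cells against 5.42%. *Hoxd13* at 125 CPM, *Hoxa13* at 139 CPM and *Wnt5a* at 626 CPM were highest there, while *Hoxc13* was at 20.6 CPM and *Hoxb13* at 4.28 CPM. *Msx1*, *Dlx5*, *Tbx5* and the *Hox13* genes of the A and D groups are known from the patterning of limb and external genital mesenchyme. *Osr2* was at 397 CPM, with a UMI in 47.3% of cells (36.9 to 57.9), its highest level in the cluster, and *Tnmd* had no UMI.

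Subcluster 5, of 76 cells, was led by *Tcf21* (70.9-fold), *Myocd* (58.2-fold), *Foxf1* (45.7-fold) and *Acta2* (26.9-fold), with *Fendrr*, *Lrrc7*, *Fam155a* and *Synpo2*. *Myocd* encodes myocardin, a coactivator of smooth muscle genes, and *Foxf1* a forkhead factor of visceral mesoderm. *Acta2*, *Myh11* and *Cnn1*, which encode contractile proteins, were at 2190, 469 and 194 CPM, but *Acta2* had a UMI in 27.6% of cells (18 to 39.1), so that most cells of the subcluster showed none at this depth. *Tcf21*, a transcription factor of visceral and fibroblast progenitors, had a UMI in 57.9% of its cells without thinning against 1.64% of the rest. *Hoxd13* was at 84.3 CPM and *Hoxc13* at 3.20 CPM. The retinoic acid genes *Aldh1a2* and *Rarb* were at 205 and 115 CPM.

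Subcluster 7, of 49 cells, had the lowest *Scx*, at 143 CPM, and was led by *Islr2* (68.8-fold), the T-box gene *Tbx20* (31.7-fold), *Dgkk*, *Adamts16*, *Slitrk1*, *Abca9* at 229 CPM (9.28-fold), the retinaldehyde dehydrogenase *Aldh1a3* (8.20-fold) and *Thbs4* at 228 CPM (7.24-fold). *Thbs4* had a UMI in 77.6% of its cells and 10.8% of the rest. *Ebf2* was at 395 CPM and *Pdgfra* at 369 CPM, both highest there, and *Postn* at 607 CPM was second to subcluster 3. *Col14a1* was at 29.7 CPM, the lowest of the 7. The *Scx* level of subcluster 7 was near the 136 CPM of code 8 and the 125 CPM of code 5. Of its cells 1 held 13.9% haemoglobin UMIs, and the median cell 0.022%.

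Genes of the *Hox13* group differed in level among the subclusters. *Hoxc13* was at 228, 334 and 275 CPM in subclusters 1, 2 and 6 and at 3.20 to 80.1 CPM in the others. *Hoxb13* was at 47.9, 53.9 and 69.3 CPM in the same subclusters and at 0.55 to 9.15 CPM elsewhere. *Hoxd13*, in contrast, was at 125 and 84.3 CPM in subclusters 4 and 5 and at 1.10 to 9.10 CPM elsewhere. *Hoxa13* was at 139 and 85.4 CPM in subclusters 4 and 5, 59.4 CPM in subcluster 2 and 1.65 to 25.9 CPM in the others. Subclusters 3 and 7 were low for *Hoxa13*, *Hoxb13* and *Hoxd13*, and subcluster 3 had *Hoxa10* and *Hoxa11* at their highest, 436 and 100.2 CPM. The hedgehog target *Ptch1* also differed among subclusters, at 246, 206 and 154 CPM in 4, 5 and 1 and at 24.2 to 40.0 CPM in the others.

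**Figure D5:**
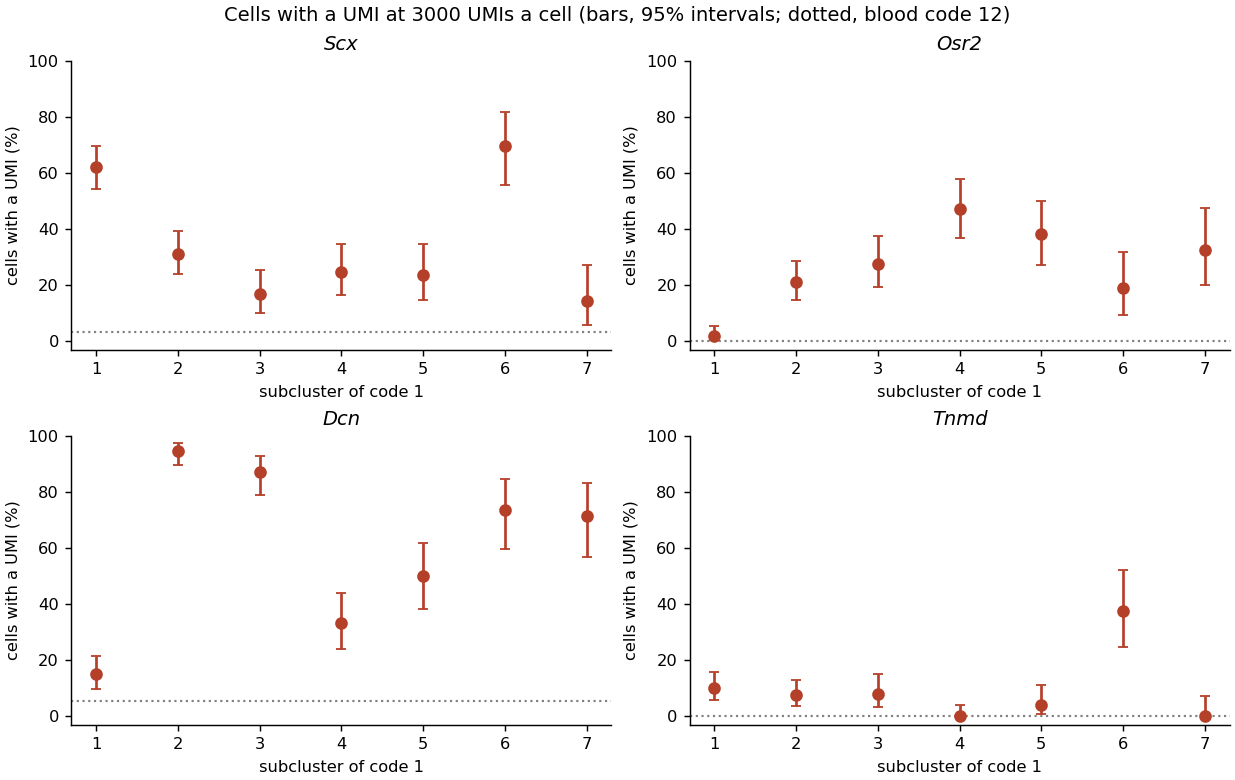
Points give the percent of cells with a UMI of *Scx*, *Osr2*, *Dcn* and *Tnmd* (y axis) in each subcluster of code 1 (x axis) at 3000 UMIs a cell, with exact 95% intervals that cover counting error alone. Dotted lines give the share in the blood cells of code 12, whose UMIs are mostly haemoglobin, so that they can understate the background. *Scx* is highest in subclusters 6 and 1, where *Osr2* is lowest, although the *Osr2* interval of subcluster 6 overlaps those of subclusters 2, 3, 5 and 7.

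Cells of both sexes were in the library, so that it held at least 2 embryos, whose number the labels do not give. Of 290 cells with *Xist* and no Y-linked UMI, 108 (37.2%, 31.7 to 43.1) belonged to code 1, and of 1389 cells with a Y-linked UMI (*Ddx3y*, *Eif2s3y*, *Kdm5d* or *Uty*) and no *Xist*, 539 (38.8%, 36.2 to 41.4) did. Each of the 7 subclusters held cells of both kinds. The marker ratios of code 1 over other cells kept their direction within each kind. *Scx* had a ratio of 2.30 in *Xist* cells and 1.64 in Y-linked cells, *Dcn* 3.97 and 3.22, *Postn* 2.51 and 2.96, and *Osr2* 2.33 and 4.75. Within code 1, *Scx* was at 2884 CPM in *Xist* cells and 1159 CPM in Y-linked cells, and the difference was not tested, since the embryos cannot be told apart. Of the 635 genes higher in code 1, 627 had the same direction in both kinds and 377 passed 2-fold in both. Of the 624 lower genes, 618 had the same direction and 545 passed 2-fold in both. *Xist* and a Y-linked UMI occurred together in 70 tail cells, 20 of them in code 1, with a median of 26399 UMIs.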

How the data were processed

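The authors deposited raw counts of UMIs for each gene in each cell, made with Cell Ranger from 10x 3′ libraries and clustered with Seurat 3.0, and the first row of the table gives each cell its cluster code. Per the study's methods, multi-mapping reads were ignored, and cells over 7.5% mitochondrial UMIs and the bottom and top 2% of cells were removed; no deposited tail cell exceeds 7.46%. The genome build is not given in the sources used here. The members and gene lists were chosen with earlier results of these data known. Genes were named from 37 lists and by the ratio ranks stated, at 50 CPM or more in the higher group, and for subclusters with a UMI in at least 25% of their cells. Intervals are exact: Poisson for levels, conditional binomial for ratios, Clopper-Pearson for shares. Subclusters came from Leiden clustering (10000 counts per cell, log1p, 2000 variable genes, 20 principal components, 15 neighbors, resolution 0.5, seed 1). Scrublet, set to a 6% doublet rate, was used to mark doublets, which were kept. The calling rule was run on simulated data, but the outcome is not given here and no result rests on it. Python 3.11.15, NumPy 2.4.6, SciPy 1.17.1, Scanpy 1.11.5, leidenalg 0.10.2 and Matplotlib 3.10.9 were used. Tail depth per cell ranged from 891 to 48291 UMIs. Some genes are not reported here.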

Additional observations from a re-analysis of the deposited data

How the results depend on the processing

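The groups compared are cells of the same library, so no paired analysis across libraries was possible. With 1 tail library, differences between embryos could not be measured, and the counting intervals do not cover them. The ratios of *Scx*, *Dcn*, *Postn* and *Osr2* stayed above 1 in all settings run. Higher genes outnumbered lower ones (635 and 624), but were fewer without haemoglobin, mitochondrial and ribosomal protein genes (478 and 694), without cells under 1000 genes (484 and 777), at detection in 5% of cells (859 and 1115), and with no filter. The 635 higher genes numbered 1073 when each other cluster was weighted equally, 375 at detection in 25% of cells and 1528 with no detection filter. The 624 lower genes numbered 1115 at detection in 5% of cells, 165 at 25% and 2656 with no filter. The marker ratios over the other tail cells moved with the scaling. Without haemoglobin, mitochondrial and ribosomal protein genes they were 1.89 for *Scx*, 3.19 for *Dcn* and 2.62 for *Postn*, and without cells under 1000 genes 1.90, 3.20 and 2.63. As a mean over cells they were 2.16 for *Scx*, 3.63 for *Dcn*, 3.58 for *Postn* and 5.18 for *Osr2*, and with the other clusters weighted equally 3.28, 5.10, 2.28 and 6.61. As settings chosen after seeing the data, without the subcluster with the highest *Scx* the ratios were 1.2 for *Scx* and 3.04 for *Postn*, and without cells holding both *Xist* and Y-linked UMIs 1.99 for *Scx*, 3.62 for *Dcn* and 3.18 for *Postn*. *Scx* was thus under 2-fold in 4 of these settings. The share of code 1 cells with a *Scx* UMI was 41.0% at 5000 UMIs and 47.8% at 10000 UMIs. Resolutions of 0.3 and 1 gave 4 and 15 subclusters in place of 7. For the other 48 alternative values, counts stayed within 1.5 times the main count and ratios and shares within the main interval. Genes at few UMIs, such as *Sp7* and *Bglap*, could not be compared at this depth.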
